A study of Mus musculus with 12 samples.

Results

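The 8 genes described here are Hmgcs1, Idi1, Fdps, Fdft1, Sqle, Lss and Cyp51, which encode 7 enzymes of the sterol pathway, and Insig1, which encodes a regulator of that pathway. They were taken by symbol from a table of 24736 genes, all 8 were found, and all 8 passed the filter on low counts with the 18060 genes tested. The samples were hippocampi of male mice aged 4 months. One group carried the APPswe and PSEN1dE9 transgenes (APP/PS1, replicates 1, 2 and 3), and the other was made up of wild-type littermates (WT, replicates 1, 2 and 4). Each of the 6 mice gave a stranded total RNA library. In this mouse line prion protein promoter sequence drives the transgenes in the brain.

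Cells make cholesterol from acetyl-CoA through mevalonate, isoprenoids, squalene and lanosterol. The brain relies on its own synthesis, because plasma lipoproteins do not cross the blood-brain barrier, and oligodendrocytes and astrocytes are major sources. When sterol in the endoplasmic reticulum is low, the escort protein SCAP carries the transcription factor SREBP-2 to the Golgi, where 2 proteases release its active part, which binds sterol regulatory elements beside the genes of the pathway. INSIG proteins hold SCAP back when sterol is plentiful, and Insig1 is itself a target of SREBP, so the enzymes and Insig1 are commonly seen to move as a group in cultured cells.

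The promoters are shown because the genes are known for this shared control. RefSeq windows of build GRCm38.p6 were found for 5 of the 8 genes, Hmgcs1, Idi1, Lss, Cyp51 and Insig1. The 250 bases before the start site are printed for the enzyme gene Hmgcs1 (chr13:119690101-119690350, plus strand) and for Insig1 (chr5:28071162-28071411, plus strand), with capitals marking a sterol regulatory element core, a CCAAT box bound by NF-Y or a GC box bound by Sp1.
Hmgcs1: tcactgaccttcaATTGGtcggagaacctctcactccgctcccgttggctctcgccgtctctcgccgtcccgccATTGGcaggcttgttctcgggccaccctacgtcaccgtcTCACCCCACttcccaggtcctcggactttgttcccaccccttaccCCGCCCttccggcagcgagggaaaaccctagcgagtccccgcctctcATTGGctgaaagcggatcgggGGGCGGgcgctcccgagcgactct
Insig1: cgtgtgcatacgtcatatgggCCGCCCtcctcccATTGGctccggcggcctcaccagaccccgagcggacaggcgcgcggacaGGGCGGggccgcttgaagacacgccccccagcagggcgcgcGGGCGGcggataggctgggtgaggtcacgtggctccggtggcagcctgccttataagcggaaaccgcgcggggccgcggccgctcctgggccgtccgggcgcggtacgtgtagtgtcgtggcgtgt
The core searched was TCACCCCAC on both strands, and in these 5 windows it was found in that of Hmgcs1, 137 to 129 bases before the start. It occurs in 0.496% of all 32851 windows of that length, and the version with 1 free base, TCACNCCAC, occurs in 1.05% and again matched Hmgcs1 among the 5. No other form was searched, so a window without a match is not shown to lack a sterol regulatory element. CCAAT on either strand was found in all 5 windows, against 33.8% of all windows, with 3 copies for Hmgcs1, 2 for Idi1 and 1 each for Lss, Cyp51 and Insig1. GGGCGG on either strand was also found in all 5, against 32.7% of all windows, with 3 copies for Insig1. None of the marked sites overlapped another.

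The 6 libraries held 120958765 to 146904552 estimated counts, and the smallest count of any of the 8 genes was 2785. App, the gene of the amyloid precursor protein, stood at 3170, 3465 and 2948 counts per 1000000 (CPM, with library size adjusted by the TMM method) in APP/PS1 and at 1580, 1522 and 1548 CPM in WT, higher in every library labelled as transgenic. The third APP/PS1 library stood apart over the whole table. Its value lay below all WT libraries for 35.7% of all genes tested and above all of them for 37.8%. Differences between the genotypes are therefore also given without it for the 8 genes, and elsewhere where it changed their sign or size.

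No difference between the genotypes was detected in any of the 8 genes. With edgeR's quasi-likelihood test across all genes, 0 of the 8 had a Benjamini-Hochberg adjusted p under 0.05, and 0 had an unadjusted p under 0.05. Of all genes tested, 0.00554% passed the adjusted and 3.42% the unadjusted threshold. The 1 gene that passed the adjusted threshold was lower in APP/PS1. App did not pass it, although its log2 fold change was 1.04 (SE 0.09; edgeR's adjusted p = 0.117). DESeq2 and limma-voom also called 0 of the 8, where DESeq2 called 0.145% of its genes. The mean log2 fold changes were small, from -0.13 for Sqle to 0.11 for Insig1, but their 95% intervals were wide. Only the interval of Insig1 was narrower than 0.5 log2 units. All 7 enzymes lay below every WT library in APP/PS1 replicate 3, and all but Idi1 lay above every WT library in APP/PS1 replicate 2.

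Hmgcs1 encodes the cytosolic HMG-CoA synthase, which acts early in the mevalonate route. Its level was 211, 268 and 157 CPM in the APP/PS1 libraries, in the order of their replicate numbers, against 212, 223 and 227 CPM in the WT libraries. The second APP/PS1 library was 21.7% above the WT mean and the third differed from it by -29.0%, so that the APP/PS1 values lie on both sides of the narrow WT range. The log2 fold change was -0.06 (SE 0.19, 95% interval -0.50 to 0.38), with edgeR's adjusted p of 0.948.

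Idi1 and Fdps act on the isoprenoid units. Idi1, the isomerase that readies isopentenyl diphosphate for condensation, stood at 23.5, 27.9 and 21.7 CPM in APP/PS1 mice and 23.9, 25.5 and 29.5 CPM in WT. Its highest library was a WT one, and the 2 lowest were from APP/PS1 mice. The log2 fold change was -0.11 (SE 0.13, 95% interval -0.42 to 0.20; edgeR's adjusted p = 0.887). Fdps, which joins these units to farnesyl diphosphate, stood at 30.1, 29.1 and 20.7 CPM in APP/PS1 mice and 26.3, 27.1 and 26.6 CPM in WT. Replicates 1 and 2 of APP/PS1 lay above every WT library and replicate 3 lay below every one. The group means, 26.6 ± 5.17 CPM in APP/PS1 mice and 26.7 ± 0.38 CPM in WT (SD, n = 3 each), gave a log2 fold change of -0.002 (SE 0.15, 95% interval -0.36 to 0.35; edgeR's adjusted p = 0.998).

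Fdft1 and Sqle carry out the committed steps toward sterols. Fdft1, squalene synthase, stood at 68.0, 69.7 and 47.6 CPM in APP/PS1 mice and 60.5, 65.5 and 67.7 CPM in WT. As with Fdps, 2 transgenic libraries lay above the WT range and the third lay below it. The log2 fold change was -0.06 (SE 0.15, 95% interval -0.43 to 0.30; edgeR's adjusted p = 0.935). Sqle, squalene epoxidase, a second control point of the pathway, stood at 47.4, 55.9 and 32.7 CPM in APP/PS1 mice and 45.2, 52.0 and 51.3 CPM in WT. Its value in APP/PS1 replicate 3 differed from the WT mean by -34.0%, the largest such gap among the 8 genes. The log2 fold change was -0.13 (SE 0.19, 95% interval -0.59 to 0.33; edgeR's adjusted p = 0.899).

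Lss and Cyp51 act on the ring system. Lss, lanosterol synthase, stood at 26.4, 33.8 and 25.7 CPM in APP/PS1 mice and 30.7, 27.7 and 29.0 CPM in WT. Cyp51, the lanosterol demethylase of the cytochrome P450 family, stood at 51.1, 74.8 and 50.5 CPM in APP/PS1 mice and 60.7, 55.4 and 63.9 CPM in WT. In both genes APP/PS1 replicate 2 was the highest library of all and the other two APP/PS1 libraries were below all WT libraries. The log2 fold changes were -0.03 for Lss (SE 0.12, 95% interval -0.32 to 0.27) and -0.03 for Cyp51 (SE 0.17, 95% interval -0.43 to 0.37), with edgeR's adjusted p of 0.971 and 0.975.

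Insig1 shared the high value of APP/PS1 replicate 2 but not the low value of replicate 3. It stood at 35.4, 37.4 and 37.4 CPM in APP/PS1 mice and 35.6, 32.9 and 33.8 CPM in WT. APP/PS1 replicates 2 and 3 were the 2 highest libraries, and replicate 1 lay just inside the WT range, so the groups overlapped by that library. The log2 fold change was 0.11 (SE 0.07, 95% interval -0.07 to 0.28), with edgeR's adjusted p of 0.887.

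**Figure D1:**
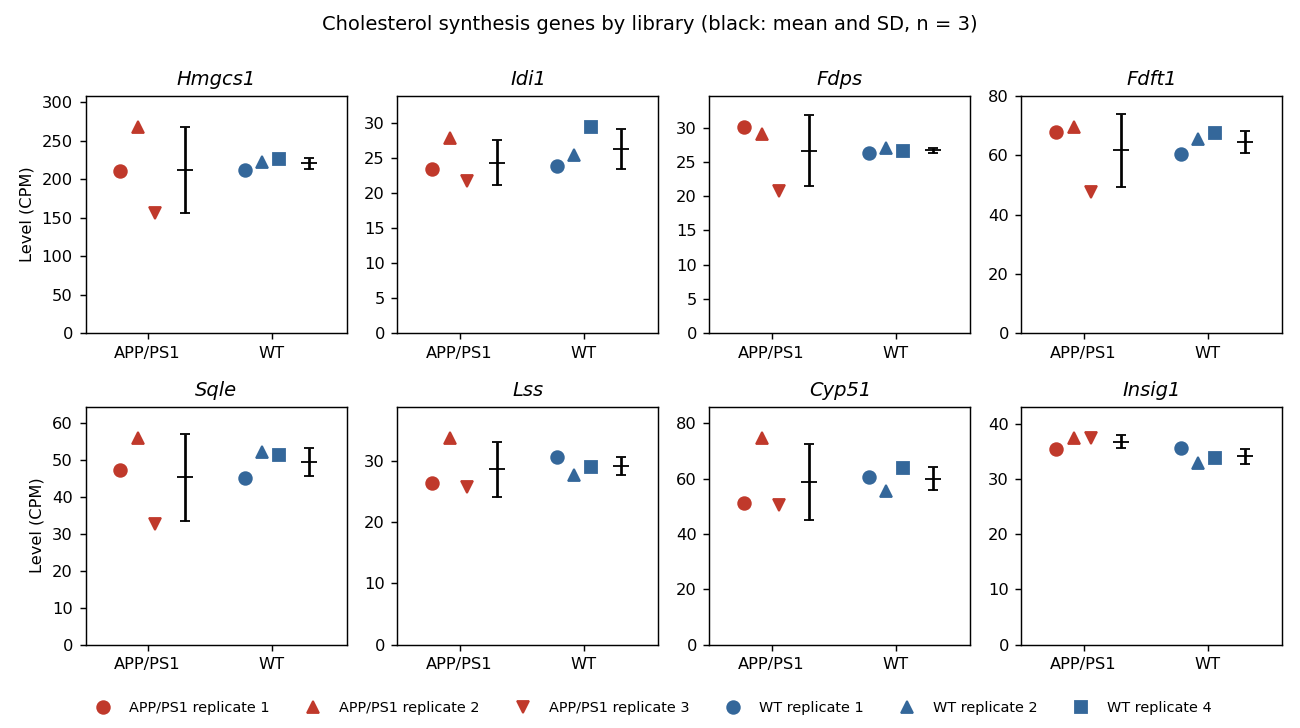
Level of each of the 8 genes in CPM (vertical axes from 0) in the 3 APP/PS1 and 3 WT libraries, with 1 point per library and the mean and SD in black. In the 7 enzyme panels APP/PS1 replicate 3 (red, pointing down) lies below all WT points, and in the Insig1 panel it lies above them at 37.4 CPM.

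The spread of the enzymes differed between the groups more than their means did. The coefficient of variation, the SD as a percentage of the mean, was 26.4% in APP/PS1 and 3.38% in WT for Hmgcs1, 19.4% in APP/PS1 and 1.43% in WT for Fdps, and 26.0% in APP/PS1 and 7.65% in WT for Sqle. It was larger in APP/PS1 for all 7 enzymes, and for Insig1 it was 3.21% in APP/PS1 and 4.03% in WT. A larger value in APP/PS1 was common, being found for 71.9% of all genes tested. The median over the 7 enzymes was 19.9% in APP/PS1 and 5.74% in WT, beside 10.5% in APP/PS1 and 4.95% in WT over the 7680 genes with a mean of at least 20 CPM. The difference in spread was not tested.

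In APP/PS1 replicate 3 all 7 enzymes lay below every WT library, against 35.7% of all genes tested. In APP/PS1 replicate 2, 6 of the 7 lay above every WT library, the exception being Idi1, against 28.4% of all genes. Both held together for those 6 enzymes and for 7.05% of all genes. These shares describe 2 libraries, and the enzymes are not independent of each other.

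Some pairs of enzymes kept nearly the same proportion while the levels varied. Hmgcs1 and Sqle each differed 1.71-fold between the highest and the lowest library. The ratio of Sqle to Hmgcs1 in CPM, which is not corrected for transcript length and is used here only to compare libraries, was 0.225, 0.208 and 0.209 in APP/PS1 and 0.213, 0.233 and 0.227 in WT, a 1.12-fold range. For Idi1, Fdps, Fdft1, Lss and Cyp51 the ratio to Hmgcs1 ranged 1.24-fold to 1.33-fold, beside 1.31-fold to 1.48-fold for their levels. Among the 21 pairs of enzymes the range of the ratio ran from 1.12-fold, for Sqle and Hmgcs1, to 1.52-fold, for Fdps and Cyp51. Fdps and Fdft1 at 1.13-fold and Lss and Cyp51 at 1.14-fold were about as steady as Sqle and Hmgcs1. For Insig1 the ratio to Hmgcs1 ranged 1.72-fold, being 0.239 in the third APP/PS1 library and 0.139 in the second, against 0.148 to 0.168 in WT.

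Leaving out 1 library moved the sign of the enzyme differences. With all 6 libraries 7 of the 8 log2 fold changes were below 0, against 47.7% of all genes tested. Their median was -0.04, beside 0.01 for all genes. Without APP/PS1 replicate 3, 7 of the 8 were above 0, Idi1 being the exception at -0.04, and the median was 0.08. Of the 18060 genes tested with all libraries, 8976 were then above 0. The largest was that of Fdps at 0.15 (SE 0.07, 95% interval -0.02 to 0.32; edgeR's adjusted p = 0.995). Without APP/PS1 replicate 2, 7 of the 8 were again below 0 and the median was -0.19. Cyp51 then had -0.24 (SE 0.10) with an unadjusted p of 0.0483 and edgeR's adjusted p of 0.749, and Sqle had -0.31 (SE 0.18). In that fit 1 of the 8, Cyp51, had an unadjusted p under 0.05, against 5.31% of all genes. Insig1 stayed between 0.08 and 0.14 whichever library was left out.

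**Figure D2:**
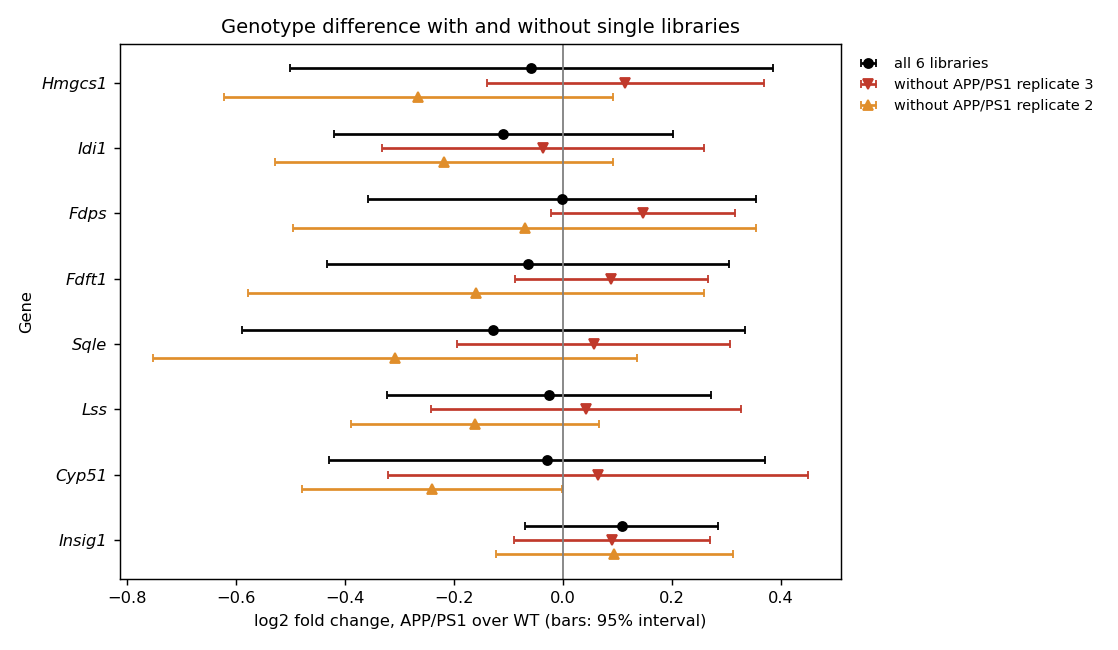
The log2 fold change of each gene, APP/PS1 over WT (horizontal axis), with its 95% interval, from all 6 libraries (black), without APP/PS1 replicate 3 (red) and without APP/PS1 replicate 2 (orange). Enzyme estimates move to the right of 0 without replicate 3, apart from Idi1 at -0.04, and further left without replicate 2, while those of Insig1 stay near 0.1.

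Over the 6 libraries, the 21 pairs of enzymes had Pearson correlations of their log2 CPM from 0.41 to 0.97, with a median of 0.80. The 7 pairs of Insig1 with an enzyme had correlations from -0.46 to 0.19, with a median of -0.31. These are descriptions of the same 6 libraries with no test, and 2 of these libraries carry most of the variation. The genes most like the mean profile of the 8, among 11765 others with a mean of at least 5 CPM, were Impact, Nrg3, Rundc3b, Nov and Usmg5, each with a correlation of 0.99 over the 6 libraries. Likeness of this kind was not rare, since 259 of those genes (2.20%) had a correlation over 0.9.

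No difference between the genotypes was detected in the other enzymes of the pathway either. Of 14 further enzymes of the route, 0 passed edgeR's test over all genes, 0 had an unadjusted p under 0.05, and DESeq2 and limma-voom called none. There were 10 below 0 and 4 above, with a median log2 fold change of -0.11, which was -0.04 without APP/PS1 replicate 3. The groups did not overlap for 1 of the 14, the isomerase Idi2, at 0.50, 0.66 and 0.59 CPM in APP/PS1 mice and 0.92, 0.80 and 0.71 CPM in WT, against 10.4% of all genes, or 4.76% in that direction.

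In APP/PS1 replicate 3, 7 of the 14 lay below every WT library, against 35.7% of all genes, and 4 lay above, Ggps1, Ebp, Lbr and Tm7sf2, against 37.8%. Msmo1, a C4-demethylating oxidase, stood at 46.1, 49.0 and 28.4 CPM in APP/PS1 mice and 50.4, 48.6 and 47.1 CPM in WT. Mvk, mevalonate kinase, had a log2 fold change of -0.23 (SE 0.15), or -0.098 without APP/PS1 replicate 3. Ggps1, which takes farnesyl diphosphate away from sterols toward geranylgeranyl diphosphate, went the other way, at 20.2, 16.4 and 81.2 CPM in APP/PS1 mice and 18.8, 21.5 and 18.4 CPM in WT. Its log2 fold change of 1.00 (SE 0.59) was -0.10 without replicate 3. Ebp, the sterol isomerase, stood at 9.64, 10.6 and 18.1 CPM in APP/PS1 mice and 9.33, 9.41 and 9.93 CPM in WT, with a log2 fold change of 0.42, or 0.08 without that library. Low values in replicate 3 thus did not extend to every enzyme of the route.

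**Figure D3:**
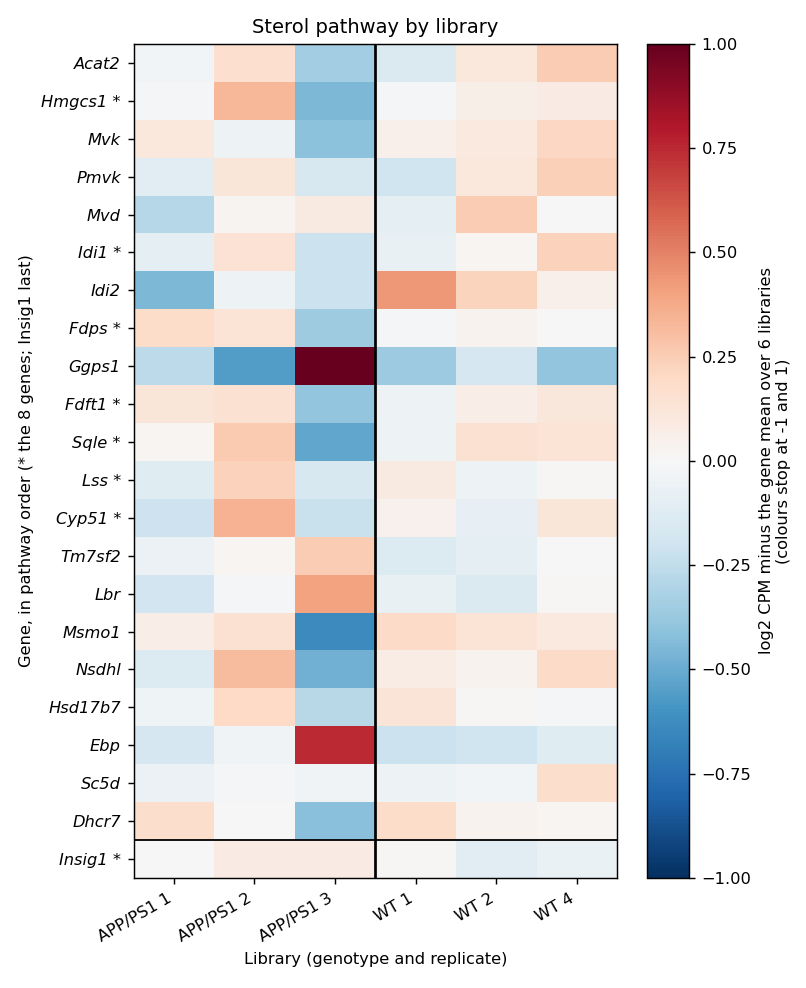
Deviation of each gene's log2 CPM from its mean over the 6 libraries (colour) for the 8 genes (starred) and 14 other enzymes, in pathway order down the page with Insig1 last, by library. The column of APP/PS1 replicate 3 is blue for the 7 starred enzymes and for Acat2, Mvk, Idi2, Msmo1, Nsdhl, Hsd17b7 and Dhcr7. It is red for Ggps1, Ebp, Lbr and Tm7sf2.

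The genes that regulate SREBP did not follow the enzymes as a list, though Srebf2 did in part. Srebf2, which encodes SREBP-2, stood at 185, 177 and 141 CPM in APP/PS1 mice and 182, 181 and 172 CPM in WT, low in replicate 3 but not high in replicate 2. Of 8 genes on this list 0 passed edgeR's test over all genes and 1 had an unadjusted p under 0.05, while DESeq2 and limma-voom called none. That gene was Insig2, the paralogue of Insig1, at 32.5, 35.9 and 38.5 CPM in APP/PS1 mice and 29.4, 31.9 and 30.5 CPM in WT, with no overlap between the groups, as for the 5.63% of all genes that lay above in APP/PS1. Its log2 fold change was 0.22 (SE 0.09), or 0.16 without APP/PS1 replicate 3, where 0 of the 8 had an unadjusted p under 0.05, with edgeR's adjusted p of 0.887. Rnf139, a ubiquitin ligase that binds INSIG proteins, also lay above in all APP/PS1 libraries, at 32.0, 33.6 and 37.7 CPM against 30.4, 30.7 and 29.0 CPM in WT. In APP/PS1 replicate 3, 2 of the 8 lay below every WT library and 4 above, against 35.7% and 37.8% of all genes. None of the 8 had a correlation over 0.8 with the mean of the 7 enzymes. Of all genes 8.28% had one, as did 4 of the 7 enzymes set against the other 6. For 8 genes a count of 0 is near the share of all genes, so it does not set this list apart. The correlations on this list ran from -0.91 for the protease gene Mbtps1 to 0.77 for Srebf2. That of Srebf2 was like those of the enzymes Lss (0.75), Cyp51 (0.75) and Fdps (0.78).

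Among genes of sterol uptake and transport, the sterol carrier gene Stard4 stood at 19.3, 11.7 and 46.0 CPM in APP/PS1 mice and averaged 16.6 ± 4.76 CPM in WT (SD, n = 3), and its log2 fold change of 0.63 was -0.11 without APP/PS1 replicate 3. Over all 4 genes of that list, 9 fatty acid genes under SREBP control and 15 genes of sterol export, storage and oxidation, 0 passed edgeR's test over all genes and 0 had an unadjusted p under 0.05. The median log2 fold changes were -0.13, -0.04 and -0.03, and without APP/PS1 replicate 3 they were -0.17, 0.02 and -0.04. DESeq2 and limma-voom called none of them. The groups did not overlap for 3 of the 15 export, storage and oxidation genes, Apoe, Cyp46a1 and Nr1h2. All 3 were lower in APP/PS1, against 4.76% of all genes. They also did not overlap for 1 of the 9 fatty acid genes, Elovl6, which was higher in APP/PS1, against 5.63% of all genes. Fasn, fatty acid synthase, had a log2 fold change of -0.11 (SE 0.11), which was -0.015 without APP/PS1 replicate 3 and -0.21 without APP/PS1 replicate 1. Cyp46a1, which turns cholesterol into its 24-hydroxy form in neurons, stood at 89.0, 84.0 and 52.5 CPM in APP/PS1 mice and 89.1, 91.9 and 94.2 CPM in WT. Its log2 fold change was -0.29 (SE 0.19), or -0.089 without APP/PS1 replicate 3. Apoe, the main lipoprotein component made by astrocytes, stood at 934, 931 and 755 CPM in APP/PS1 mice and 1056, 1067 and 971 CPM in WT, with a log2 fold change of -0.24 (SE 0.11) and edgeR's adjusted p of 0.887, or -0.15 without APP/PS1 replicate 3.

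Markers of cell types differed between the same libraries. In bulk tissue fewer cells of a type and less RNA per cell cannot be told apart. No marker was at 0 in any library. Of 70 markers, activity genes included, 0 passed edgeR's test over all genes, 10 had an unadjusted p under 0.05, against 3.42% of all genes, and DESeq2 and limma-voom called 0 of them. Of the 10, 4 were among the 7 choroid plexus markers and higher in APP/PS1, and 4 were among the 8 immediate early genes and lower. Without APP/PS1 replicate 3 the counts in these lists were 5 and 6, against 4.03% of all genes. In APP/PS1 replicate 3 all 9 hippocampal neuron markers and all 7 microglia markers lay below every WT library, against 35.7% of all genes. Summed over the list, the hippocampal neuron markers ranged from 576 to 1056 CPM in APP/PS1 mice and from 938 to 1005 CPM in WT, and the microglia markers from 137 to 227 CPM in APP/PS1 mice and from 201 to 220 CPM in WT. Wfs1, a CA1 gene of the hippocampal list, stood at 152, 132 and 90.2 CPM in APP/PS1 mice and 137, 172 and 142 CPM in WT. All 7 choroid plexus markers lay above every WT library in APP/PS1 replicate 2, against 28.4% of all genes, and also in replicate 3, against 37.8%. Their sum was 2568, 5675 and 3465 CPM in APP/PS1 mice and ranged from 2193 to 2598 CPM in WT.

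Glial markers shared the low values of APP/PS1 replicate 3 in part. All 5 oligodendrocyte precursor markers and 11 of the 12 oligodendrocyte and myelin markers lay below every WT library there, as the enzymes did, against 35.7% of all genes. In APP/PS1 replicate 2, 0 of either list lay above every WT library, against 28.4% of all genes. The 12 oligodendrocyte and myelin markers summed to 2779 to 3449 CPM in APP/PS1 mice and 2974 to 4365 CPM in WT. Their highest library was WT replicate 1, in which the median deviation of the 7 enzymes was -0.01, while that of the myelin markers was 0.41. The 8 astrocyte markers went both ways, with 4 above and 2 below every WT library in APP/PS1 replicate 3, against 37.8% and 35.7% of all genes. Their sum was 7318, 7890 and 6353 CPM in APP/PS1 mice and 8097, 8359 and 7568 CPM in WT, highest in replicate 2 and lowest in replicate 3 of APP/PS1, as for the enzymes. Most of that sum is Slc1a2, a glutamate transporter gene, at 5356, 6188 and 3925 CPM in APP/PS1 mice and 6023, 6315 and 5658 CPM in WT. The median deviation of the astrocyte markers was 0.20 in APP/PS1 replicate 3 and -0.21 in replicate 2, where that of the enzymes was -0.35 and 0.23. Over the 6 libraries the correlation with the mean of the 7 enzymes was 0.88 for Slc1a2. It was 0.90 for the precursor marker Pdgfra and 0.92 for the microglia marker P2ry12. Slc1a2, Pdgfra and P2ry12 were the highest of their lists. Of the 70 markers, 7 had a correlation over 0.8, against 8.28% of all genes, and 3 of the 7 were hippocampal neuron markers. These were Dsp (0.91), Pantr1 (0.90) and Neurod6 (0.87). The other hippocampal neuron markers ranged from 0.53 for Zbtb20 to 0.68 for Wfs1. The other astrocyte markers ranged from -0.96 for Slc1a3 and -0.94 for Aldoc to 0.19 for Gfap. The other precursor markers ranged from 0.40 for Olig2 to 0.68 for C1ql1, and the other microglia markers from 0.63 for Cx3cr1 to 0.84 for Siglech. The 5 oligodendrocyte precursor markers summed to 119 to 178 CPM in APP/PS1 mice and 172 to 190 CPM in WT, the 9 neuron markers to 4890 to 5368 CPM in APP/PS1 mice and 5441 to 5918 CPM in WT, and the 5 endothelial markers to 165 to 192 CPM in APP/PS1 mice and 170 to 191 CPM in WT. The 8 immediate early genes, which respond to neuronal activity, summed to 341 to 565 CPM in APP/PS1 mice and 624 to 736 CPM in WT. The summed level of the immediate early genes was lower in every APP/PS1 library than in any WT library, and 5 of the 8 had groups that did not overlap, against 4.76% of all genes. The sum of the neuron markers was also lower in every APP/PS1 library, but that rested on Syt1, a synaptic vesicle gene. Without it the sums were 4523, 4240 and 4315 CPM in APP/PS1 mice and 4639, 4431 and 4594 CPM in WT, which overlap, and 0 of the 9 neuron markers had groups that did not overlap. The part of these markers in the enzyme values was not tested.

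**Figure D4:**
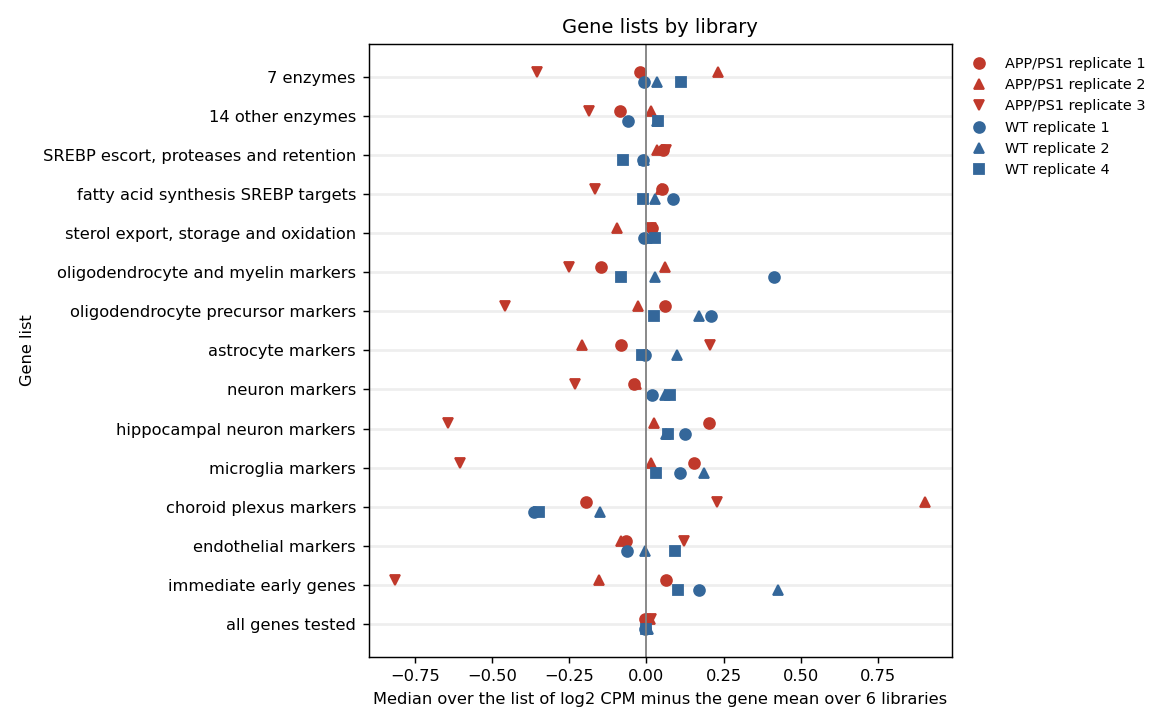
Median, over each gene list (vertical axis), of the deviation of log2 CPM from the gene's mean over the 6 libraries (horizontal axis), with 1 point per library. For the 7 enzymes APP/PS1 replicate 3 lies at -0.35 and replicate 2 at 0.23, while the median over all genes tested lies near 0 in every library.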

How the data were processed

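The table deposited by the authors gives an estimated count, always a whole number, for each gene symbol in 6 total RNA libraries. Per the labels' protocols these were TruSeq Stranded Total RNA libraries sequenced on an Illumina HiSeq instrument. HISAT2, StringTie, DESeq and the build mm10 appear in the submitters' processing notes, with no roles. The counting step, annotation and strand setting are not given there. About 4 estimated counts were taken to stand for 1 fragment, so that depth in fragments is uncertain. The small RNA table was not used here.

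APP/PS1 was compared with WT with edgeR 4.0.16 in R 4.3.3 (quasi-likelihood test, TMM scaling, default filter, no covariate), fitted on the deposited counts of all genes. Benjamini-Hochberg adjustment ran over the 18060 genes tested, and 0.05 was the threshold. The 95% intervals rest on the quasi-likelihood SE and its degrees of freedom. Deviations by library use log2 CPM with a prior count of 2. The biological coefficient of variation over all genes was 26.5%. The 8 genes and the lists were chosen with earlier results of these data known. From each list up to 3 genes with the smallest p could be named, besides Srebf2 and the 5 genes most like the mean of the 8. Genes whose groups did not overlap, or that left or shared the pattern by library, were also named, in part after their values were seen. They include Ebp, Lbr, Tm7sf2, Nsdhl, Dhcr7, Acat2, Hsd17b7, Nr1h2, Wfs1, Pdgfra, P2ry12, Dsp, Pantr1, Neurod6 and Zbtb20. Some genes of the lists are not reported here and are left out of the list counts. Alternatives were other scalings and filters, DESeq2 1.42.0, limma-voom (limma 3.58.1), counts divided by 4, a replicate block and each library left out. List medians without APP/PS1 replicate 3 and the neuron sum without Syt1 were added after the data were seen. The procedure was tested on simulated data with a smaller biological coefficient of variation and larger fold changes than those of the 8 genes. That test does not measure its power for the 8 genes. Each library is 1 mouse as far as the labels say, and p-values weigh the genotype difference against the spread between these libraries.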

Additional observations from a re-analysis of the deposited data

How the results depend on the processing

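The count of the 8 genes past the adjusted threshold was 0 under every setting run, and the smallest adjusted p of any of them was 0.583. Over all genes the count past the threshold was 1 with all 6 libraries, 26 with the DESeq2 test, 617 at an unadjusted p under 0.05, and 0 to 6 with 1 library left out (0 without WT replicate 1 or 2, where 371 and 345 had an unadjusted p below that value, 4 without WT replicate 4, 5 without APP/PS1 replicate 3 and 6 without APP/PS1 replicate 1). No gene of the 50 in the 6 lipid lists had an adjusted p under 0.05 under any setting, and 1, Insig2, had an unadjusted p under 0.05 with all 6 libraries. The median log2 fold change of the 8 lay between -0.19 and 0.08 with 1 library left out.

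With 1 library left out, log2 fold changes ranged from -0.27 to 0.11 for Hmgcs1, -0.10 to 0.15 for Fdps, -0.16 to 0.089 for Fdft1, -0.31 to 0.057 for Sqle, -0.16 to 0.042 for Lss, -0.24 to 0.065 for Cyp51, -0.16 to 0.017 for Srebf2, -0.10 to 1.37 for Ggps1, -0.11 to 0.97 for Stard4 and -0.17 to 0.056 for Slco1a4, changing sign. With library totals only, Fdps was at 0.00094.

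The genotypes share replicate numbers 1 and 2, but no label says that a number pairs mice, and the deviations of same-numbered libraries correlated at 0.088 and -0.044. A fit with the replicate number as a block, on these 4 libraries, had no APP/PS1 replicate 3. It called 1 gene, none of the 8, with a median of 0.09, and turned the sign for Hmgcs1 (0.13), Idi1 (0.054), Fdps (0.15), Fdft1 (0.13), Sqle (0.087), Lss (0.035), Cyp51 (0.092) and Ggps1 (-0.14).

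With 3 mice per genotype the 95% intervals of the log2 fold changes were wide, from -0.32 to 0.27 for Lss and from -0.59 to 0.33 for Sqle.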
